A study of Mus musculus with 52 samples.

Results

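Ccl21a, Tspan18 and Ecscr are 3 genes that lay far below wild type (WT) in cerebellar endothelial cells (ECs) with stabilized beta-catenin, and the values below follow them through the other tissues, cell fractions and chromatin profiles of the series. They are 3 of 49585 annotated genes with a transcript in the files, and 3 of 17915 genes with enough reads for a test in the sorted EC libraries. They were chosen by the comparison of stabilized with WT cerebellar ECs, so that comparison is described here without a test. The question asked of the remaining data is whether the fall holds outside the cerebellum.

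Ccl21a encodes the secreted chemokine CCL21, a ligand of the receptor CCR7 that draws T cells and dendritic cells towards lymphatic vessels and the high endothelial venules of lymph nodes. Tspan18 encodes a tetraspanin, a small protein with several membrane passes, that binds the store-operated calcium channel Orai1 in ECs. Ecscr encodes a single-pass, sialomucin-like surface protein of ECs that binds filamin A and takes part in EC migration. Beta-catenin carries canonical Wnt signals to TCF and LEF transcription factors in the nucleus, and in central nervous system ECs this pathway maintains the blood-brain barrier.

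The series holds 52 mouse libraries in 26 groups of 2. Cells of cerebellum, anterior pituitary and posterior pituitary of adult males were sorted into GFP-positive cells, labelled as vascular ECs, and GFP-negative cells, and the GFP-positive cells were also profiled by ATAC-seq, which maps accessible chromatin. WT mice carried Tie2-GFP alone, whereas stabilized mice carried Tie2-GFP; Pdgfb-CreER; BcatEx3fl, so that 4-hydroxytamoxifen (4HT, 100 µg at postnatal day 10) removed exon 3 of the beta-catenin gene and made the protein resist degradation. In cortex and choroid plexus, RNA on tagged ribosomes (bound) was compared with whole-tissue RNA (input) at 6–8 weeks of age in RiboTag; Pdgfb-CreER mice (WT) and RiboTag; Pdgfb-CreER; BcatEx3fl mice (stabilized). All RiboTag mice thus carried Cre and received 4HT, but the sorted WT mice lacked Cre and, by the study's methods, the 4HT treatment. Pdgfb-CreER acts in ECs and may recombine only part of them, and GFP-positive cells were sorted whether or not they had recombined. Pituitaries of 20–30 mice aged 30–90 days and choroid plexi of 3–4 mice were pooled for each library.

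Library 2 of stabilized anterior pituitary GFP-positive RNA is named anterior in its title and source but posterior in its tissue label. It was kept as anterior, and the log2 fold changes of Tspan18 and Ecscr and the test of the Ccl21 sum are also given without it. The sorted RNA libraries held 12157485 to 37529274 assigned reads and the RiboTag libraries 6409013 to 21399125. All 11 general EC markers were detected in each GFP-positive and bound library. The bound fractions also held RNA of other cells: the 8 microglial markers summed to 4200 to 6044 normalized CPM (reads relative to the library total) in cortex bound RNA, and the 6 choroid plexus epithelial markers to 22885 to 42144 in choroid plexus bound RNA. Axin2, a direct Wnt target, stood at 0.356 and 0.405 TPM (a length-corrected share of the transcripts in a library) in WT posterior pituitary ECs, and at 26.7 and 28.1 TPM in those of stabilized mice.

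Levels are given in TPM, and genotypes are compared on normalized CPM (scaled by the trimmed mean of M-values). These scales do not move together. Over genes at 10 TPM or more, the median log2 ratio of stabilized to WT was −1.04 in TPM in both posterior pituitary ECs and cortex bound RNA, against −0.11 and −0.09 in normalized CPM. In cerebellar ECs the same medians were 0.01 in TPM and 0.06 in normalized CPM. The RNA Gm42418, which overlaps ribosomal RNA sequence, took 7.11% of reads in WT posterior pituitary ECs and 16.6% in their stabilized counterparts. Its part in the TPM shift was not tested.

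In cerebellar ECs all 3 genes stood between 15 and 18.8 times lower in stabilized than in WT libraries on normalized CPM. Ccl21a stood at 205 and 220 TPM in the WT libraries and at 9.60 and 10.8 TPM in the stabilized libraries. These levels rested on 5421 and 6265 reads in WT and 270 and 257 reads in stabilized libraries. Tspan18 stood at 16.1 and 13.7 TPM in WT and at 1.69 and 0.135 TPM in stabilized libraries. Stabilized library 2 was thus well below stabilized library 1, with 26 reads against 265. Ecscr stood at 14.2 and 25.6 TPM in WT and at 1.5 and 0.923 TPM in stabilized libraries, from 362 and 646 reads against 40 and 21. In each case both stabilized libraries lay below both WT libraries, and 22.1% of the genes tested did so in this comparison. The fitted log2 fold changes were −4.23 (SE 0.50) for Ccl21a, −4.07 (SE 0.68) for Tspan18 and −3.89 (SE 0.50) for Ecscr. In these bulk libraries, fewer cells of a type and less RNA per cell cannot be told apart.

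**Figure D1:**
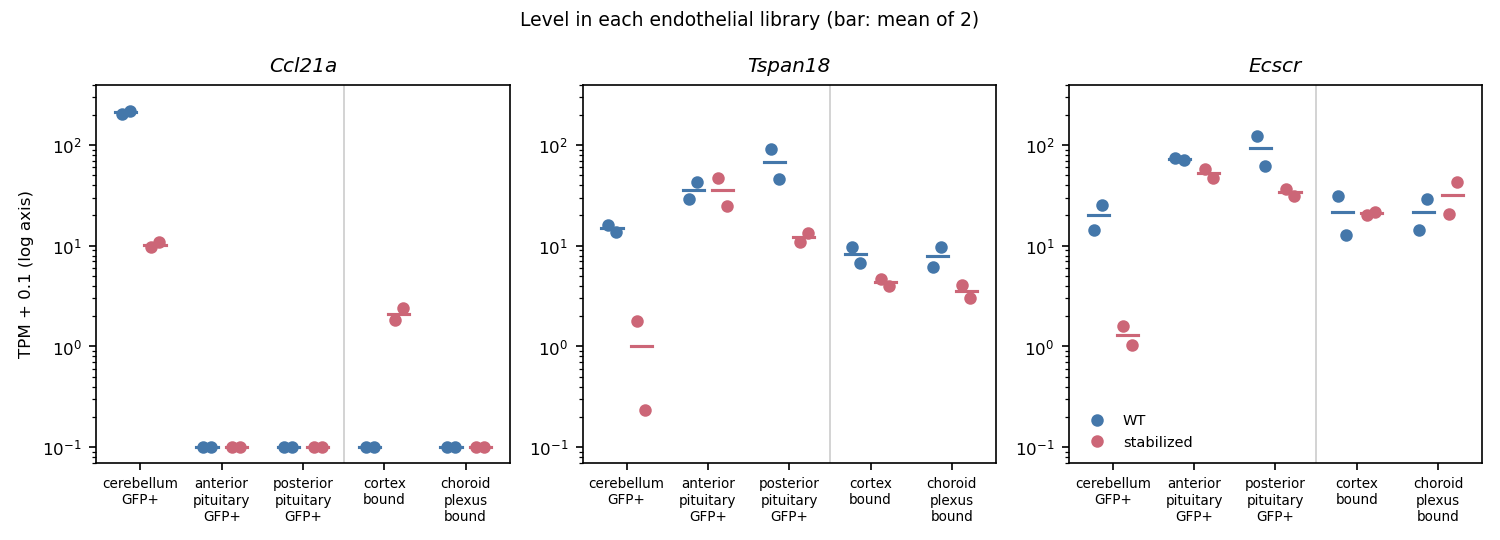
Level of Ccl21a, Tspan18 and Ecscr in each of the 20 EC libraries, in TPM plus 0.1 on a log axis, with WT in blue, stabilized in red and the mean of 2 libraries as a bar. In cerebellum each gene lies far lower in the stabilized libraries, whereas elsewhere Ccl21a, without its copies, is at 0 except in stabilized cortex bound RNA, and the gap is smaller or absent for Tspan18 and Ecscr.

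As the rule that chose them implies, the 3 genes headed the order of fall in this comparison among genes high in WT cerebellar ECs. edgeR called 0.648% of 17915 genes, of which 104 were lower (0.581%). Of these, 9 were also enriched in WT cerebellar ECs, as were 4.46% of all genes tested for enrichment, and were at 10 TPM or more in both WT libraries and without overlap of the groups. The genes next in order were Dusp1, a stress-induced phosphatase, at a log2 fold change of −3.05 (SE 0.55), Smagp, a small membrane glycoprotein, at −2.98 (SE 0.41), and Ier3, an immediate early gene, at −2.75 (SE 0.39). None of these following 3 genes was called in anterior or posterior pituitary ECs by edgeR, with adjusted p from 0.101 for Ier3 to 1 for Smagp in the anterior lobe and from 0.242 to 0.770 in the posterior lobe. Of the last 3 of the 9, Cd24a, a surface glycoprotein named here after its values were seen, was called lower in posterior pituitary ECs as well (−2.24, adjusted p = 0.0268), where 0.541% of all genes were called lower, and Icam1 and Nrp2 were called in neither lobe.

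Endothelial markers as a whole moved little beside this fall. The 11 general EC markers, such as Pecam1, Cdh5 and Tie1, had a median log2 fold change of −0.21 in cerebellar ECs, against −0.08 over all genes tested, and none was called. Mural cell markers summed to 3544 and 3361 normalized CPM in WT and 2467 and 2308 in stabilized cerebellar GFP-positive cells, and all 9 had a negative fold change, with none called. Markers of meningeal and perivascular fibroblasts summed to 213 and 302 in WT and 178 and 246 in stabilized libraries. Of their 9 tested members, 8 had a negative fold change and 1, Dcn, was called lower, and the median fitted log2 fold change was −3.41, which includes fits against libraries near 0. Of 8 tested pituitary endocrine markers 7 were negative and 1 was called lower (median −3.49). Of 3 tested pituicyte markers 1 was negative and was called lower (median 0.50). Choroid plexus epithelial markers had a median of −5.95, with 4 of 6 negative and none called. Over all genes 0.581% were called lower. The part of these cells in the fall of the 3 genes was not tested.

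Outside the cerebellum few reads were assigned to Ccl21a itself. It was listed at 0 reads in all 8 GFP-positive libraries of the anterior and posterior pituitary, in all 4 choroid plexus bound libraries and in all 8 input libraries. Over the anterior pituitary EC libraries together, a count of 0 allows up to 0.0274 CPM before scaling, and over the posterior pituitary EC libraries up to 0.0323. No fold change between genotypes can therefore be given for the Ccl21a transcript itself in either lobe or in choroid plexus, but in the anterior lobe its copies, described below, held reads. Nearly all of its cerebellar reads were in GFP-positive cells, with 0 and 1.94 estimated reads in the WT GFP-negative libraries and 0 in both stabilized ones.

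Ccl21a reads appeared in 2 groups of stabilized libraries whose WT counterparts had none, both opposite in direction to the cerebellum. In cortex bound RNA the stabilized libraries held 14 and 27 reads (1.73 and 2.3 TPM) and the WT libraries 0, at least 28.8-fold higher against a floor of 3 reads over the WT group. edgeR did not call it (adjusted p = 0.181, with an unadjusted p under 0.05), and 6.32% of 16775 genes were called in that comparison. In anterior pituitary GFP-negative cells the stabilized libraries held 126 and 127 reads (3.35 and 2.42 TPM) and the WT libraries 0, at least 83.9-fold higher by the same floor. edgeR did not call this either (adjusted p = 0.771, with an unadjusted p under 0.05), where 0.0408% of 19612 genes were called. Both gaps shrank once reads of the copies of Ccl21a were added. For Ccl21a alone, without its copies, limma on log2(TPM + 1) called both, with adjusted p of 0.00531 and 0.00265. With this setting 3476 of 16775 genes were called in cortex bound RNA and 100 of 19612 in anterior pituitary GFP-negative cells.

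The reads of Ccl21a could be shared with near-identical genes. Ccl21a lies on chromosome 4 at chr4:42772860-42773993 (GRCm38, minus strand) and has a single transcript of 870 bases. Gm21541, a copy on the same chromosome, has a transcript of the same length that differs from it at 6 bases, and of the 31-base words of Gm13304, 82.8% also occur in Ccl21a. In cerebellar ECs Ccl21a with all its copies, 6 genes in all, held 5427 and 6483 reads in WT and 270 and 257 reads in stabilized libraries, close to the values of Ccl21a itself.

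Elsewhere the copies changed the picture. In anterior pituitary ECs the 6 genes together held 0 reads in both WT libraries and 33 and 76 reads in the stabilized libraries (1.55 and 5.58 TPM), all of them assigned to copies other than Ccl21a. The sum was at least 46.2-fold higher in stabilized libraries against the floor of 3 reads over the WT group, and edgeR called it higher (adjusted p = 0.00585), where 0.458% of genes were called and 0.441% called higher. The 76 reads were in stabilized library 2, whose tissue labels differ, and without that library the sum was still called (adjusted p = 4.42e-07), the lone stabilized library being assumed to vary like the other groups.

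Markers of other cells also moved in the same anterior pituitary libraries. Among venous markers the adhesion molecule Vcam1 held 0 and 1 reads in WT and 615 and 1247 in stabilized libraries, and Vwf stood at 0.601 and 0.503 normalized CPM in WT against 35.4 and 66.2, and edgeR called both higher (adjusted p = 1.25e-05 and 8.48e-05). Microglial markers summed to 52.2 and 30.6 normalized CPM in WT against 276.7 and 587.4 in stabilized libraries, with 1 of 8 called higher, and leukocyte markers to 5.56 and 0.786 against 102.8 and 143.7, with 1 of 6 tested called higher. Their part in the rise of the Ccl21 sum was not tested.

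For cortex bound RNA the sum was 10 and 0 reads in WT and 14 and 27 in stabilized libraries (log2 fold change 2.81, SE 2.05, adjusted p = 0.462, edgeR). In anterior pituitary GFP-negative cells it was 0 and 38 reads in WT and 127 and 163 in stabilized libraries (log2 fold change 3.16, SE 3.06, adjusted p = 0.967). Choroid plexus bound RNA held 3 and 12 reads in WT and 5 and 23 in stabilized libraries, which overlapped once scaled to library size (adjusted p = 0.895). Posterior pituitary ECs remained at 0 in all 4 libraries. With 0 to 15 reads of the sum over both WT EC libraries of each other tissue, a fall of Ccl21a like that in the cerebellum could not have been seen outside it.

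The upstream sequence of Ccl21a shows how close the copies are. It is 250 bases, chr4:42773992-42774241 on the minus strand, that lie ahead of the gene except for an overlap with its first bases. The sequence is from RefSeq on GRCm38.p6, with capitals at the only bases at which any of 4 further copies on chromosome 4 differ:

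Ccl21a upstream: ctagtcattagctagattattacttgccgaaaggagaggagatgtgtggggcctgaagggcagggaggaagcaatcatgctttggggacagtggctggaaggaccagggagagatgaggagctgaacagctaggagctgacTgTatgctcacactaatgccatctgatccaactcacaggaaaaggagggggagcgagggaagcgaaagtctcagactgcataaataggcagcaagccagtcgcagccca

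These 4 copies start at positions 41903362, 42114536, 42255444 and 42611872, all on the plus strand, and differ from the sequence above at 1, 2, 1 and 2 of 250 bases. Short reads from this stretch therefore cannot be placed with certainty. It held none of 6 motifs searched on both strands, TCF/LEF (TTCAAAG or ATCAAAG), ETS (CAGGAAG or CCGGAAG), AP-1 (TGANTCA) and FOX (GTAAACA), which occurred in 3.09% to 10.5% of 27025 upstream windows of the same length.

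The other genes of the CCR7 axis gave little signal in sorted ECs. Ccl19, the second CCR7 ligand, lies 16283 bp from Ccl21a and stood at 11.1 and 14.8 TPM in WT and at 1.38 and 17.2 TPM in stabilized cerebellar ECs, so its groups overlapped. Ccr7 itself did not exceed 0.304 TPM in any GFP-positive or bound library. Of the 11 genes listed with Ccl21a, its copies included, 2 had enough reads for a test in sorted ECs. edgeR called neither in cerebellum, anterior pituitary or posterior pituitary. In WT bound RNA Ackr4, also listed, was 9.90 log2 units higher in choroid plexus than in cortex (SE 1.39, adjusted p = 0.00107, edgeR; background 29.7%). It was called between genotypes in neither of these tissues.

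Markers of the cells best known for Ccl21a were mostly at low levels. Among lymphatic EC markers Mmrn1, a secreted and matrix glycoprotein, held 149 and 106 reads in WT (4.26 and 4.09 normalized CPM) and 0 in both stabilized cerebellar EC libraries, and was called lower by edgeR (adjusted p = 1.66e-05), the only one of the 8 called, where 0.581% of all genes were called lower. Prox1, the transcription factor that sets lymphatic identity, held 80 and 90 reads in WT and 0 and 11 in stabilized libraries (log2 fold change −3.56, SE 1.06, adjusted p = 0.253). In TPM, Prox1 was at 0.354 or less, Lyve1 at 0.0917 TPM or less, Pdpn at 0.521 TPM or less and Stab2 at 0 in the 4 cerebellar GFP-positive libraries. The 8 lymphatic markers together summed to 140 and 189 normalized CPM in WT and 108 and 158 in stabilized cerebellar ECs. Of the 8, 5 had a negative fold change. Flt4, which capillary ECs also express, made up most of the sum, at 10.6 and 11.4 TPM in WT and 7.07 and 10.8 TPM in stabilized libraries. Glycam1 and Chst4, which define high endothelial venules, were at 0 in all 4. Venous markers were present: Vwf stood at 51.7 and 76.7 TPM in WT and 16.8 and 30.9 TPM in stabilized libraries, and Vcam1 at 41.7 and 62.8 TPM against 18.3 and 41.8 TPM. All 7 tested high endothelial and venous markers had a negative fold change in cerebellar ECs, with a median of −1.06, but edgeR called none of them. The part of these cells in the fall of Ccl21a was not tested.

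Tspan18 was present in ECs of every tissue. In WT libraries its mean level was 68.3 TPM in posterior pituitary ECs (SD 31.4, n = 2), 35.9 TPM in anterior pituitary ECs (SD 9.99, n = 2), 14.9 TPM in cerebellar ECs (SD 1.73, n = 2), 8.13 TPM in cortex bound RNA (SD 2.07, n = 2) and 7.90 TPM in choroid plexus bound RNA (SD 2.54, n = 2). Only the last neighbours in this order, cortex and choroid plexus, overlapped. Bound RNA also held RNA of other cells, so TPM of sorted and bound libraries are not like measures of the level in ECs. As a percentage of the summed general EC markers, WT Tspan18 stood at 1.87% and 1.47% in cerebellum. On that scale it stood at 3.13% and 3.74% in cortex, and 3.77% and 4.16% in choroid plexus. In anterior and posterior pituitary it stood at 4.01% and 4.16%, and 4.84% and 3.76%. Between the pituitary lobes the difference did not pass the edgeR test (log2 fold change 0.57, SE 0.59, adjusted p = 0.749; the background, the share of all genes called, was 0.994%), nor did that between choroid plexus and cortex (0.49, SE 0.36, adjusted p = 0.332; background 29.7%).

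Tspan18 was enriched in ECs. In the anterior pituitary it was 3.96 log2 units higher in WT GFP-positive than GFP-negative cells (SE 0.92, adjusted p = 0.00741, edgeR), where 5.46% of 21343 genes were called higher. In the posterior pituitary it was 7.29 log2 units higher (SE 1.08, adjusted p = 0.000115; background 7.07%). WT bound RNA exceeded input by 2.05 log2 units in cortex (SE 0.39, adjusted p = 0.00317; background 7.46% of 18241 genes) and by 3.14 in choroid plexus (SE 0.42, adjusted p = 0.000208; background 8.67%). Bound over input did not mark ECs alone. Microglial markers were called higher too, 8 of 8 in cortex (median 4.47) and 6 of 8 in choroid plexus (median 2.57). The 11 general EC markers had medians of 4.88 and 3.86. The main transcript of Tspan18, Tspan18-202, took 79.5% to 100% of the gene's reads over the 20 EC libraries, with a median of 94.6%.

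No fall of Tspan18 was seen in the anterior pituitary. Its WT libraries stood at 193 and 237 normalized CPM and its stabilized libraries at 230 and 143, so the groups overlapped. The log2 fold change was −0.21 (95% interval −1.49 to 1.08, adjusted p = 1, edgeR), and without stabilized library 2, whose tissue labels differ, it was 0.10.

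In the posterior pituitary Tspan18 was lower in both stabilized libraries, at 348 and 291 normalized CPM in WT and 94.6 and 139 in stabilized libraries. The mean was 2.74 times lower on this scale. In TPM, where the median gene there shifted by −1.04, Tspan18 stood at 90.5 and 46.1 in WT against 10.9 and 13.2 in stabilized libraries, and limma on log2(TPM + 1) gave −2.34 (adjusted p = 0.0533). On normalized counts, 18% of the genes tested had both stabilized libraries below both WT libraries there. The log2 fold change was −1.45 (95% interval −2.77 to −0.14). It passed 0.05 before adjustment but not after (adjusted p = 0.320, edgeR), DESeq2 gave an adjusted p of 0.164, and edgeR called 1.79% of genes there. With no filter on low counts edgeR called it lower (−1.43, adjusted p = 0.00121). That setting called 952 of 25311 genes there, 364 of them lower. Markers of other cells moved in the same libraries. Microglial markers of posterior pituitary ECs summed to 67.4 and 60.5 normalized CPM in WT against 749.7 and 561.5 with stabilized beta-catenin, with 3 of 8 called higher, and leukocyte markers to 2.53 and 0.122 against 240.4 and 159.6, with 1 of 6 tested called higher. Their part in the Tspan18 and Ecscr values of this lobe was not tested. The change in the posterior lobe was not shown to differ from that in the anterior lobe (difference −1.25, 95% interval −3.07 to 0.58, adjusted p = 0.704; background 0.128%).

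Tspan18 in cortex bound RNA stood at 49.2 and 26.5 normalized CPM in WT and at 20.1 and 19.9 in stabilized libraries. The groups did not overlap, as for 27.4% of genes lower in this way in cortex. The log2 fold change was −0.92 (95% interval −1.74 to −0.10, adjusted p = 0.173, edgeR), with an unadjusted p under 0.05. Neuronal markers were also lower there (median −1.23, 8 of 8 tested negative, 2 called), as were oligodendrocyte markers (−1.31, 5 of 5 negative, 1 called). In cortex bound RNA 2.67% of all genes were called lower. The part of these cells in the Tspan18 value was not tested. In choroid plexus bound RNA Tspan18 stood at 44.0 and 62.0 normalized CPM in WT and at 40.2 and 32.4 in stabilized libraries, again without overlap (26.7% of genes). There the log2 fold change was −0.54 (95% interval −1.36 to 0.27, adjusted p = 0.542), and edgeR called 0.852% of genes. In TPM Tspan18 stood at 6.10 and 9.70 in WT against 4.01 and 2.92 in stabilized libraries, also without overlap. The median gene there shifted by −0.12 in TPM. Choroid plexus epithelial markers had a median log2 fold change of −0.91, with 5 of 6 negative and none called. Their part in the Tspan18 value was not tested. The 2 RiboTag tissues were not shown to differ in their change (0.38, SE 0.51, adjusted p = 0.773; background 2.15%).

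**Figure D2:**
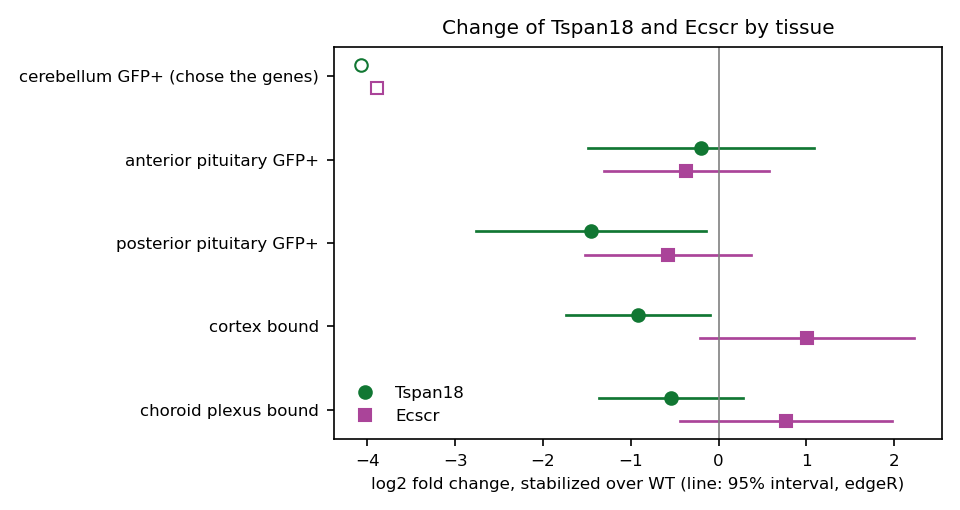
Log2 fold change of Tspan18 (circles) and Ecscr (squares), stabilized over WT, in 5 tissues, with 95% intervals from edgeR as lines. The open symbols for cerebellum, which chose the genes, have no interval. Tspan18 lies below 0 in each tissue (at 0.10 in anterior pituitary without stabilized library 2) and its interval leaves 0 out in posterior pituitary and cortex, before adjustment for the number of genes, whereas Ecscr lies above 0 in both bound fractions.

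Ecscr was also found in ECs of every tissue. Its mean WT level was 92.6 TPM in posterior pituitary ECs (SD 43.4, n = 2), 72.3 TPM in anterior pituitary ECs (SD 1.91, n = 2), 21.8 TPM in both choroid plexus (SD 10.5, n = 2) and cortex bound RNA (SD 13, n = 2), and 19.9 TPM in cerebellar ECs (SD 8.04, n = 2). The pituitary lobes overlapped, as did the other 3 tissues among themselves, and the lobes were not shown to differ (log2 fold change 0.14, adjusted p = 0.973, edgeR). Choroid plexus exceeded cortex by 1.52 log2 units on normalized counts (SE 0.55, adjusted p = 0.0607), which missed the threshold. DESeq2 gave 1.61 with an adjusted p of 0.0165.

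Ecscr was enriched in ECs as well. In the posterior pituitary WT GFP-negative libraries it had 0 reads, against 2170 and 933 in GFP-positive libraries. In the anterior pituitary it was 6.68 log2 units higher in GFP-positive cells (SE 1.66, adjusted p = 0.0133, edgeR). Bound RNA exceeded input by 4.16 log2 units in cortex (SE 0.63, adjusted p = 0.000564) and by 3.82 in choroid plexus (SE 0.61, adjusted p = 0.000707). As given for Tspan18, microglial markers were also higher in bound RNA than in input in both tissues. Transcript Ecscr-204 took 77.9% to 100% of the reads over the 20 EC libraries.

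For Ecscr no fall was called outside the cerebellum. In anterior pituitary ECs it stood at 63.5 and 49.2 normalized CPM in WT and at 42.0 and 45.4 in stabilized libraries. In posterior pituitary ECs it stood at 67.7 and 56.8 in WT and at 46.6 and 36.7 in stabilized libraries. In TPM, where the median gene there shifted by −1.04, the posterior lobe stood at 123 and 61.9 against 36.6 and 31.5 (limma on log2(TPM + 1), −1.34, adjusted p = 0.116). On normalized counts both lobes were lower without overlap, as were 17.4% of genes in the anterior and 18% in the posterior lobe. The log2 fold changes were −0.37 (95% interval −1.31 to 0.57, adjusted p = 0.954; −0.41 without stabilized library 2) and −0.58 (95% interval −1.52 to 0.36, adjusted p = 0.575) by edgeR. They were not shown to differ between the lobes (−0.21, SE 0.61, adjusted p = 1).

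In the bound fractions Ecscr went upward in value. Cortex stood at 19.7 and 7.29 normalized CPM in WT and at 27.5 and 26.6 in stabilized libraries, with both stabilized libraries above WT, as for 27.1% of genes. The log2 fold change was 1.01 (95% interval −0.21 to 2.23, adjusted p = 0.310, edgeR). In TPM the cortex groups overlapped, at 31 and 12.6 against 20.3 and 21.4. Choroid plexus stood at 27.3 and 50.0 normalized CPM in WT and at 40.6 and 91.4 in stabilized libraries, which overlapped, with a log2 fold change of 0.77 (95% interval −0.44 to 1.98, adjusted p = 0.564).

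Over the 2 pituitary lobes and the 2 bound fractions, edgeR with its filter on low counts called neither Tspan18 nor Ecscr, and DESeq2 called neither, whereas edgeR with no filter called Tspan18 in posterior pituitary, as given above. Tspan18 reached an unadjusted p under 0.05 in 2 of these 4 comparisons and Ecscr in none. With the filter, the share of all genes called lower by edgeR was 0.0167% in anterior pituitary, 0.541% in posterior pituitary, 2.67% in cortex bound RNA and 0.197% in choroid plexus bound RNA. In GFP-negative cells of the 3 sorted tissues and in input RNA of both RiboTag tissues, neither gene was called, with adjusted p from 0.574 to 1 by edgeR. In cerebellar GFP-negative cells Tspan18 stood at 10.4 and 7.43 normalized CPM in WT against 16.5 and 29.8 in stabilized libraries, which did not overlap, as for 11.8% of genes higher in this way (log2 fold change 1.38, 95% interval −1.02 to 3.77, adjusted p = 0.647). In posterior pituitary GFP-negative cells it stood at 3.55 and 0.138 normalized CPM in WT against 8.55 and 3.99 (log2 fold change 1.75, 95% interval −0.68 to 4.19, adjusted p = 0.574), where the groups overlapped in TPM but not in normalized CPM, as for 27.3% of genes. The share of genes called there was 0.76%, 0.0408% and 0.133% in the GFP-negative cells of cerebellum, anterior and posterior pituitary, and 11.8% and 0.106% in the input RNA of cortex and choroid plexus.

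Few of the 11 general EC markers were called one by one: 1 higher (1.25% of all genes) and 1 lower (0.541%) in posterior pituitary ECs, 3 higher in cortex (3.65%) and 1 higher in choroid plexus bound RNA (0.656%), and none in anterior pituitary or cerebellar ECs. Their counts summed to a log2 ratio of stabilized to WT of −0.62 in posterior pituitary ECs, 0.99 in cortex bound RNA and 0.82 in choroid plexus bound RNA, against 0.02 in anterior pituitary and −0.21 in cerebellum. The sum includes Cldn5, whose transcript the paper reports to rise with stabilization in posterior pituitary ECs. Its part in the ratios below was not tested. Expressed as a percentage of that marker sum, Tspan18 in posterior pituitary ECs stood at 4.84% and 3.76% in WT libraries, against 2.06% and 2.71% in stabilized libraries. In cortex bound RNA it stood at 3.13% and 3.74% in the WT libraries, against 0.898% and 0.865% in the stabilized libraries. In choroid plexus bound RNA the WT libraries had 3.77% and 4.16%, against 1.69% and 1.40% in the stabilized libraries. On this scale both stabilized libraries lay below both WT libraries in these 3 tissues, by 0.85, 1.96 and 1.36 log2 units. So did 6.92% of all genes in posterior pituitary, but 54.1% in cortex and 57.2% in choroid plexus, where dividing by the marker sum put the median gene at −1.24 and −0.94 log2 units, against 0.59 in posterior pituitary. In the bound fractions a gap on this scale was thus shared with most genes. The anterior pituitary groups overlapped at 4.01% and 4.16% against 4.45% and 2.61%. The cerebellar WT libraries had 1.87% and 1.47%, against 0.185% and 0.0277% in the stabilized libraries, without overlap as for 17.9% of genes.

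For Ecscr the groups overlapped on this scale outside the cerebellum and anterior pituitary. Its log2 ratio relative to the EC markers was 0.05 in posterior pituitary, 0.07 in cortex bound RNA and −0.01 in choroid plexus bound RNA, each with overlapping groups. In the anterior pituitary it was −0.41, with 1.32% and 0.865% in WT and 0.813% and 0.828% in stabilized libraries, which did not overlap, as for 17.1% of genes. These ratios are given as a description, and no test of them was run.

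**Figure D3:**
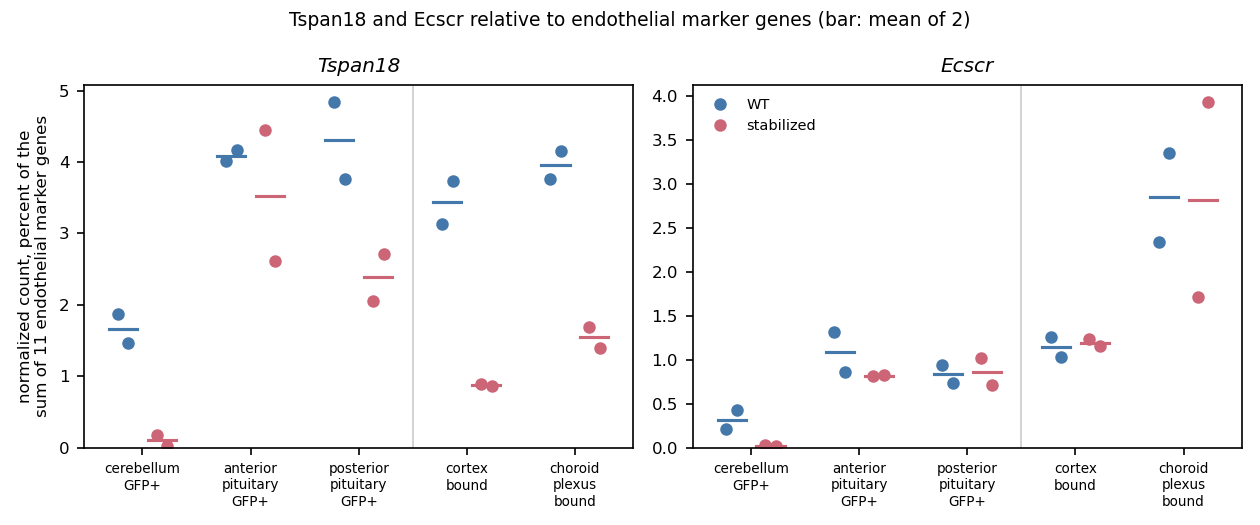
Normalized count of Tspan18 and Ecscr as a percentage of the summed counts of 11 EC marker genes, Cldn5 among them, in each library. WT is in blue, stabilized in red and the mean of 2 libraries is a bar. Tspan18 lies lower in stabilized libraries in every tissue but the anterior pituitary, where the groups overlap, but 54.1% and 57.2% of all genes do so in cortex and choroid plexus bound RNA. Ecscr lies far lower in stabilized cerebellar libraries, slightly lower without overlap in the anterior pituitary, and overlaps WT elsewhere.

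Relatives of the 3 genes were called in some tissues. Of 30 tetraspanins other than Tspan18, 25 were tested and edgeR called none in cerebellar ECs, with 15 negative fold changes. In posterior pituitary ECs only Tspan13 was called of the 25, rising by 2.38 log2 units (adjusted p = 0.000690; 1.25% of all genes were called higher). In choroid plexus bound RNA Tspan13 rose by 2.46 (adjusted p = 0.00695) and Tspan5 by 1.44 (adjusted p = 0.0250), 2 of the 25, against 0.656% of all genes called higher. In cortex bound RNA 4 of 25 tetraspanins were called lower, against 2.67% of all genes, among them Tspan7 at −2.88 (adjusted p = 0.00802) and the lysosomal Cd63 at −1.73 (adjusted p = 0.00824). Neuronal markers summed to 2456 and 3075 normalized CPM in WT and 1222 and 1203 in stabilized cortex bound RNA, and oligodendrocyte markers to 2462 and 2475 against 1072 and 1232. The part of these cells in the tetraspanin values was not tested.

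Orai1, the calcium channel that Tspan18 binds, stood at 5.70 and 6.35 TPM in WT and 5.42 and 6.42 TPM in stabilized cerebellar ECs. Of 13 listed genes of store-operated calcium entry 12 were tested, and edgeR called none in cerebellar, anterior pituitary or posterior pituitary ECs, where 0.648%, 0.458% and 1.79% of all genes were called, and none in choroid plexus bound RNA (0.852%). In cortex bound RNA, where 3.65% of all genes were called higher and 2.67% lower, 1 of the 12 was called in each direction. Nfatc1, a transcription factor driven by calcium through calcineurin, was higher by 1.52 log2 units (adjusted p = 0.0251) and Saraf, an inhibitor of store-operated entry, was lower at −1.06 (adjusted p = 0.0478).

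Of 11 endothelial surface genes listed with Ecscr, 10 had a negative fold change in cerebellar ECs, with a median of −0.51, and edgeR called none. Mcam came closest at −1.77 (adjusted p = 0.0571). In posterior pituitary ECs all 11 were negative and 3 were called lower, against 0.541% of all genes: the VEGF receptor Kdr at −1.89 (adjusted p = 0.0118), Mcam at −1.85 (adjusted p = 0.0270) and the sialomucin Podxl at −1.78 (adjusted p = 0.00514). In the anterior pituitary none of the 11 was called. In cortex bound RNA 1 of the 11 was negative and 1 was called higher (3.65% of all genes), with a median of 0.38. Choroid plexus bound RNA had 4 of the 11 negative and none called, with a median of 0.53. The sialomucin Emcn, which marks venous and capillary ECs, had a log2 fold change of −0.39 in cerebellar (adjusted p = 0.610) and −0.29 in posterior pituitary ECs (adjusted p = 0.684).

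Of 10 Wnt targets, of which 9 were tested in bound RNA, edgeR called 3 higher in anterior pituitary ECs, 5 in posterior pituitary ECs, 3 in cortex and 3 in choroid plexus bound RNA, where 0.441%, 1.25%, 3.65% and 0.656% of all genes were called higher, and none in cerebellar ECs (0.067% of all genes), where their median log2 fold change was 0.44. Axin2 stood at 30.2 and 41.5 TPM in WT and 73.9 and 113 TPM in stabilized cerebellar ECs.

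The 12 GFP-positive libraries include the 4 cerebellar ones whose fall chose the 3 genes, so part of any likeness over them was fixed by that choice. On log2 CPM, Tspan18 and Ecscr had a Pearson r of 0.948 with each other, whereas Ccl21a had −0.54 with Tspan18 and −0.65 with Ecscr. Of 7134 candidate genes, those most like Tspan18 were Vegfc (r = 0.978), Emp1 (0.977), Rnd3 (0.977), Rcn1 (0.976) and Rxra (0.975). Those most like Ecscr were Plekho1 (0.991), Tcim (0.987), Cdc42ep2 (0.985), Enpp3 (0.985) and Gm9973 (0.984). For Ccl21a, which was at 0 in 8 of the 12 libraries, they included Slc6a20a (0.977), Atp13a5 (0.970), Adgra2 (0.969) and Nomo1 (0.953). These values describe libraries that share tissue and genotype, and carry no test.

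Of 10 neighbouring genes within 50 kb, 7 were tested and edgeR called none of these in cerebellar or pituitary ECs. The other 3, 4930578G10Rik, Gm12394 and Gm16490, did not pass the filter on low counts. Trp53i11, which ends 1 bp from Tspan18 on the opposite strand, had a log2 fold change of −0.81 in cerebellar ECs (adjusted p = 0.534, edgeR), with 9.20 and 17.0 TPM in WT and 15.8 and 3.15 TPM in stabilized libraries. Around Ecscr, Dnajc18 had −0.02 (adjusted p = 1), Tmem173, the innate immune sensor STING, −0.86 (adjusted p = 0.712), and Ube2d2a −0.76 (adjusted p = 0.496). Around Ccl21a, Gm12395 and Gm12394 stood at 0.450 TPM or less in cerebellar ECs. The genes 4930578G10Rik and 1700066B19Rik, which overlap Ccl21a and Ecscr on the opposite strand, were at 0 TPM in all 4 cerebellar EC libraries. By the study's methods Salmon detected the strand type of each library itself. The type it found is not given in the sources used here, so it is not known here whether strand separated the reads of overlapping genes.

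Accessible chromatin near the genes was read from ATAC-seq peaks with over 2-fold enrichment and −log10 q over 2, within 50 kb of the gene body. A region was called gained when both stabilized and neither WT library had a peak there, and lost in the reverse case. Each library kept 25684 to 60240 peaks, and peak presence depends on this depth. Over all regions, 13.1% were gained and 1.72% lost in cerebellum, 5.13% and 3.47% in anterior pituitary, and 17.6% and 1.28% in posterior pituitary. Regions present in all 4 libraries of a tissue made up 48.9%, 53.2% and 38.3%.

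The start sites of Tspan18 and Ecscr remained accessible in stabilized cerebellar ECs. The peak 63 bp ahead of the Tspan18 start had enrichments of 7.58 and 6.77 in WT and 7.96 and 10.4 in stabilized cerebellar libraries, and a peak at the start was present in all 12 ATAC-seq libraries. The peak 95 bp ahead of the Ecscr start was present in all 4 cerebellar and all 4 anterior pituitary libraries. In posterior pituitary it was present in both stabilized and neither WT library. Ccl21a had no peak at its start in any of the 12 libraries, and its nearest peaks lay 6630 to 7256 bp downstream, inside an intron of 4930578G10Rik. Peaks at the near-identical copies of this gene cannot be assigned with certainty.

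Tspan18, which spans 132746 bp on chromosome 2 (chr2:93201760-93334505, GRCm38, minus strand), had 10 regions in cerebellum, of which 3 were gained, 1 lost and 4 present in all 4 libraries. In anterior pituitary it had 26 regions, with 0 gained, 1 lost and 12 present in all 4, and in posterior pituitary 14, with 2 gained, 0 lost and 5 present in all 4. The only region lost in cerebellum lay between genes, with its cerebellar summit 46372 bp ahead of the start and enrichments of 5.02 and 3.14 in the WT libraries. The same region was open in all 4 anterior pituitary libraries, at 8.57, 6.88, 5.61 and 6.5, and had a peak in 1 stabilized posterior pituitary library at 3.13.

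The regions gained in cerebellum included 2 inside Tspan18. One, in intron 2 of Tspan18-202 and 72493 bp from the start, had enrichments of 4.30 and 3.78 in stabilized cerebellar libraries and was open in all 4 libraries of the anterior (8.20 to 15.5) and posterior pituitary (5.18 to 10.3). The other, in intron 5 and 120124 bp from the start, had 4.57 and 4.33 in stabilized cerebellar libraries, was gained in posterior pituitary (5.19 and 7.03) and was open in all 4 anterior pituitary libraries. The third lay in an exon of Trp53i11. Under the stricter limits of 4-fold and −log10 q over 5, 1 of the 3 gained regions and none of the lost remained. The 3 sequences below are the 300 bases around these region centres, shown because they are 3 of the 4 places near Tspan18 where peak presence differed between genotypes in cerebellum, without the one in an exon. Each is centred on the strongest summit over the 3 tissues, which lies within 100 bp of the cerebellar summit. They are from GRCm38.p6, plus strand, with matches to the ETS motif CAGGAAG on either strand in capitals.

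Tspan18, between genes, lost in cerebellum, chr2:93380669-93380968: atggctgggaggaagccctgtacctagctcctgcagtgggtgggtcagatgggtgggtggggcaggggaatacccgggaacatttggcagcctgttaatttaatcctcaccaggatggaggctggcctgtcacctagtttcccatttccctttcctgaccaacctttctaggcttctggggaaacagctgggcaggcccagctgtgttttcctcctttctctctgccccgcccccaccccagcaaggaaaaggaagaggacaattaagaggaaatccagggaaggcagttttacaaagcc

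Tspan18, intron 2, gained in cerebellum, chr2:93261900-93262199: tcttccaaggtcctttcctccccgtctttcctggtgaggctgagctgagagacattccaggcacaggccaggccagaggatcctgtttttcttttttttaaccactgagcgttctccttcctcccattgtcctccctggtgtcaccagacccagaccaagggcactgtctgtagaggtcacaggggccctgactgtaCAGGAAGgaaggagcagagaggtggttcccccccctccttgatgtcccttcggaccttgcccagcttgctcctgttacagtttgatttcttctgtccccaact

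Tspan18, intron 5, gained in cerebellum and posterior pituitary, chr2:93214272-93214571: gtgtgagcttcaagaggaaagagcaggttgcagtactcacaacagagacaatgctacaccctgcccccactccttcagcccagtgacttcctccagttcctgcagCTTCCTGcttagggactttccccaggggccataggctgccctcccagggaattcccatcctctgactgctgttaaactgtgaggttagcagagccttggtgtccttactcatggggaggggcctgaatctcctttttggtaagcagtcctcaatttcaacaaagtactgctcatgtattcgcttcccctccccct

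Of the 3 windows gained in cerebellum, the 2 shown held 1 match each to CAGGAAG, an ETS factor motif, whereas the one in the Trp53i11 exon and the lost window held none of the 6 motifs. In cerebellum 22.1% of all 38999 windows of 300 bases held CAGGAAG. A TCF/LEF motif (TTCAAAG or ATCAAAG) was in none of the 43 windows around the 3 genes, and in 12.8% of windows in cerebellum, 9.79% in anterior and 9.76% in posterior pituitary.

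**Figure D4:**
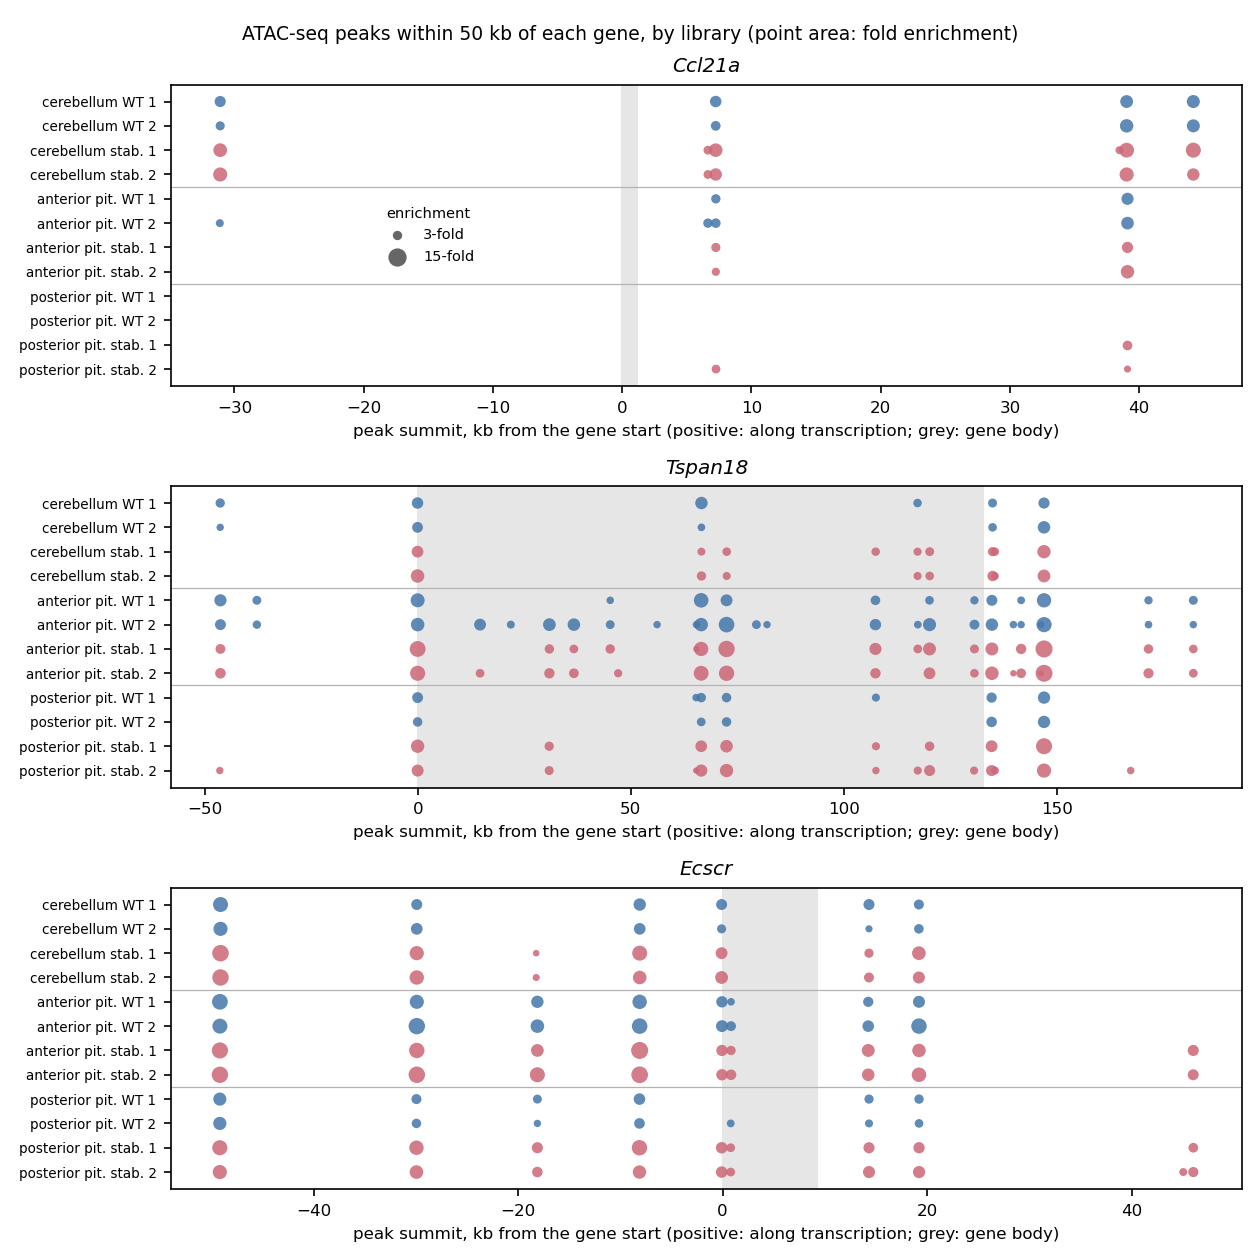
ATAC-seq peaks within 50 kb of each gene in the 12 libraries, by distance of the peak summit from the gene start in kb, with point area proportional to fold enrichment, WT in blue and stabilized in red. The start of Tspan18 has a peak in all 12 libraries, the start of Ccl21a in none, and the Tspan18 peak 46372 bp ahead of the start is in both WT but neither stabilized cerebellar library.

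Ecscr, on chromosome 18 (chr18:35713086-35722356, GRCm38, minus strand, 9271 bp), had 7 regions in cerebellum, of which 6 were present in all 4 libraries, 1 was gained and none lost. The gained region lay at the start of Tmem173, 18230 bp ahead of Ecscr. In anterior pituitary 8 of 9 regions were in all 4 libraries and 1 was gained, and in posterior pituitary 6 of 10 were in all 4 and 2 were gained. Ccl21a had 6 regions in cerebellum, with 4 in all 4 libraries, 1 gained 6630 bp downstream and none lost. It had 4 regions in anterior pituitary and 2 in posterior pituitary. No region near Ccl21a or Ecscr was lost in any tissue.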

How the data were processed

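Gene levels came from the estimated counts and TPM that the authors deposited for each transcript, made with Salmon 0.10.2 on Ensembl release 92 (GRCm38) with sequence, GC and position bias correction and automatic detection of strand type, from single-end reads of amplified cDNA. The effect of amplification on low counts cannot be seen in these files. Here estimated counts were summed to genes (GENCODE M21 models) and rounded. edgeR 4.0.16 (quasi-likelihood test, TMM, filterByExpr, Benjamini-Hochberg over all genes) was fitted with R 4.3.3 to all libraries of a fraction, with 1 coefficient per group, and genes were called at an adjusted p under 0.05 and at least 2-fold. Intervals are 95% and cover counting and replicate error of these fits only. A 0 was read against a floor of 3 reads.

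ATAC-seq peaks were called per library by the authors with MACS2 2.1.1.20160309 after Bowtie2 2.3.2, and the deposited peak lists give fold enrichment and −log10 q. Peaks above 2 in both were compared at 1 bp of overlap. Peak presence was compared, with no test.

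The 3 genes and all gene lists were chosen with earlier results of these data known. Named genes were the 3 genes and their copies, the CCR7 axis, neighbours within 50 kb, the 5 most similar genes (1 is not reported here), the 3 next in the cerebellar order, up to 4 called genes per list and comparison, and genes a sentence turned on. By the study's methods each group holds 2 biological replicates, pooled animals for the pituitary and choroid plexus, so p-values measure the spread between these. Both fractions came from the same sort or homogenate and both lobes from the same mice, which the main tests treat as independent. The fits and peak comparison were tested on simulated data. Alternatives were DESeq2 1.42.0, DESeq2's size factors, no filter, limma 3.58.1 on log2(TPM + 1) and log2(TPM + 0.1), only the groups compared, each library left out, a replicate block, a replicate block within pools of animals (added after seeing the data), summed Ccl21 copies, and other peak limits.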

Additional observations from a re-analysis of the deposited data

Results flagged for a closer look

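In cortex bound RNA, Ccl21a stood opposite to the cerebellum. Both stabilized libraries held reads and both WT libraries held none, at least 28.8-fold higher against a floor of 3 reads over the WT group, whereas in cerebellar ECs both stabilized libraries lay below both WT libraries. The difference between the tissues was not tested, since the cerebellar contrast chose the gene. With the copies of Ccl21a added, the WT cortex libraries held 10 and 0 reads, against 14 and 27 in the stabilized ones. In these libraries 1 of 6 tested lymphatic EC markers and 1 of 7 high endothelial and venous markers were called higher. So were 2 of 10 meningeal and perivascular fibroblast markers, against 3.65% of all genes. Negative fold changes were found for 5 of the 6, 2 of the 7 and 5 of the 10. The part of these cells was not tested.

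On normalized CPM, the values of Ecscr also lay in opposite directions in these tissues, but outside the cerebellum edgeR called none of the changes. Both stabilized cortex bound libraries lay above both WT libraries, as for 27.1% of genes, by 1.01 log2 units in the fit. In ECs of cerebellum, anterior and posterior pituitary both stabilized libraries lay below both WT libraries, as for 22.1%, 17.4% and 18% of genes. The difference between the tissues was not tested. The summed counts of the general EC markers had a log2 ratio of 0.99 in the same cortex libraries, with 3 of 11 called higher. Relative to that sum, Ecscr had a log2 ratio of 0.07 in cortex. Its cortex groups overlapped on that scale and in TPM.

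In anterior pituitary ECs the summed reads of Ccl21a and its copies were higher in both stabilized libraries, with 33 and 76 reads against 0 in WT. The sum was at least 46.2-fold higher over both stabilized libraries together. The 76 reads in that bound were in stabilized library 2, whose tissue labels differ. In cerebellar ECs the same sum was lower in both stabilized libraries. This difference was not tested either.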

How the results depend on the processing

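Groups of 2 libraries limit the precision of every value here, and the estimated reads of near-identical Ccl21 genes can be shared among them in any library. Over 35 tested results for the 3 genes, 403 alternative values were computed, of which 366 kept direction and side of the threshold, 17 passed the threshold that the reported value had missed and 20 reversed in sign. None lost its call. Where a value changed, the cause was not tested.

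In cerebellar ECs the fitted fold change without 1 library in turn ranged from −6.22 to −3.25 for Tspan18 and from −4.36 to −3.13 for Ecscr. In anterior pituitary ECs, Ccl21a with its copies had a fitted log2 fold change of 8.86 (adjusted p = 0.00585), which depends on the prior count because WT was at 0. In alternatives chosen after seeing the data, this sum was called without each library in turn, at 8.83 and 8.84 without either WT library and at 9.42 and 7.98 without stabilized library 1 and 2. Tspan18 there ranged from −0.57 to 0.10 without 1 library in turn. In posterior pituitary ECs, Tspan18 was called by edgeR with no filter on low counts (−1.43, adjusted p = 0.00121), as were 952 of 25311 genes in either direction. The WT difference of Ecscr between the lobes ranged from −0.032 to 0.33 without 1 library in turn.

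For Ccl21a without its copies, limma on log2(TPM + 1) and log2(TPM + 0.1) gave 1.58 and 4.39 in cortex bound RNA, both called. These settings called 3476 and 2381 of 16775 genes there. In anterior pituitary GFP-negative cells they gave 1.95 and 4.88, both called, where 100 and 75 of 19612 genes were called. The WT difference of Tspan18 between choroid plexus and cortex reversed in TPM, at −0.049 and −0.056. That of Ecscr passed the threshold with DESeq2 (1.61), with DESeq2's size factors in edgeR (1.61) and with no filter (1.63). Without 1 library in turn it ranged from 1.03 to 2.40, and it was called without WT cortex bound library 1 (adjusted p = 0.00903) and without WT choroid plexus bound library 1 (adjusted p = 0.0256). The difference in genotype effect between choroid plexus and cortex reversed in TPM for Tspan18 (−0.19 and −0.24) and for Ecscr (0.45 and 0.46). Without 1 library in turn it ranged from −0.14 to 0.81 for Tspan18 and from −1.12 to 0.36 for Ecscr, with adjusted p of 0.478 or more over all these settings.

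In GFP-negative cells without 1 library in turn, Tspan18 ranged from −0.52 to 0.16 and Ecscr from −6.85 to 2.06 in anterior pituitary. Tspan18 ranged from 0.82 to 5.46 in posterior pituitary. It was called there without WT library 1, where the WT group was 1 library with 3 reads of Tspan18. In cortex input RNA Tspan18 was called in log2(TPM + 0.1) at −1.57. With this setting the median gene stood at −1.41 there, and 9614 of 16085 genes were called lower. Tspan18 in cortex input RNA ranged from −0.67 to 0.15 without 1 library in turn. Ecscr there was −0.46 and −1.08 in TPM and ranged from −0.10 to 1.59. In choroid plexus input RNA Tspan18 ranged from −0.071 to 0.72.

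The number of genes called, 116 in cerebellum, 82 in anterior pituitary, 321 in posterior pituitary, 1060 in cortex and 143 in choroid plexus, moved more under most settings. DESeq2 called 982, 586, 1395, 1943 and 654, and edgeR without a filter 569, 443, 952, 2137 and 874. limma on log2(TPM + 1) called 37, 179, 667, 3476 and 49, and on log2(TPM + 0.1) 44, 201, 681, 2381 and 52. Fits of only the groups compared called 6 in cerebellum, 110 in posterior pituitary and 260 in choroid plexus, but 82 in anterior pituitary and 1293 in cortex. Without 1 library in turn the counts ranged from 179 to 518, 97 to 255, 200 to 1144, 327 to 1270 and 84 to 169.

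Between genotypes, replicate numbers only name libraries: the correlation of same-numbered libraries lay between −0.04 and 0.02 in the EC comparisons. With the replicate number as a block, Tspan18 in posterior pituitary ECs was −1.40 (adjusted p = 0.304), no call for the 3 genes changed, and 132, 117, 381, 888 and 109 genes were called. By the study's methods both fractions came from 1 sort or homogenate and both lobes from 1 pool of pituitaries, though no source says that a replicate number marks a pool. The correlation of same-numbered WT libraries across fractions was −0.0038 to 0.091 and across lobes −0.013. A replicate block that takes the number as the pool, chosen after seeing the data, changed no call for Tspan18 or Ecscr, with Tspan18 at 4 (adjusted p = 0.0106) in anterior and 8.2 (adjusted p = 0.000255) in posterior pituitary GFP-positive against GFP-negative cells.

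Peak calls moved by small numbers. Under the stricter limits, Tspan18 had 1 gained and 0 lost regions in cerebellum and 1 gained in anterior pituitary, while Ecscr in cerebellum and Ccl21a in posterior pituitary had 0 gained. With no threshold Tspan18 had 1 gained region in posterior pituitary, and within 100 kb it had 5 there and Ccl21a had 2 in cerebellum.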
